A study of Arabidopsis thaliana with 48 samples.

Results

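RALFL32 and CLE44 are Arabidopsis thaliana genes that encode precursors of small secreted signalling peptides, and their transcript levels were followed across the 16 groups of a study of guard cells, leaves, abscisic acid (ABA) and the heterotrimeric G protein. These 2 genes were chosen by their higher level with ABA in wild-type leaves, out of 13350 genes with a probe set tied to exactly 1 gene. That choosing value was a difference of 3.41 on the log2 scale for RALFL32 (10.7-fold) and of 2.32 for CLE44 (4.99-fold). All comparisons that hold wild-type leaf arrays are therefore given below as descriptions of these 2 genes, without a test. Each gene was read by 1 probe set, 245386_at for RALFL32 (locus AT4G14010) and 254761_at for CLE44 (locus AT4G13195).

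RALF peptides (rapid alkalinization factors) raise the pH outside the cell. They are perceived by receptor kinases of the FERONIA (FER) family, and in Arabidopsis the perception of RALF1 by FER acts with the G protein beta subunit AGB1 in stomatal movement. CLE41 and CLE44 encode the same peptide, called TDIF, which is made in the phloem, is perceived in the neighbouring cambium and holds back the formation of xylem. ABA is the hormone of drought, and guard cells, which border the stomatal pore, close the pore in response to it.

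The study hybridised 48 one-colour Affymetrix arrays, 3 to each of 16 groups, which combine sample type, genotype and treatment. The sample types were isolated guard cells, each sample prepared from 300 leaves of 60 to 70 plants, and whole leaves, each sample holding 10 leaves of plants grown beside them. The genotypes were wild type, the agb1-2 mutant (G protein beta subunit), the gpa1-4 mutant (G protein alpha subunit) and the agb1-2 gpa1-4 double mutant, all in Col-0 and called below wild type, agb1, gpa1 and agb1 gpa1. Samples received 50 µM ABA or its solvent ethanol (EtOH) for 3 h. All plants were 5 weeks old and had grown with 8 h of light at 20 °C and 16 h of dark at 18 °C. Each mutant genotype was 1 allele or 1 pair of alleles, every sample pooled plants, and the labels differ on whether leaves or already isolated guard cells were held in ABA. AGB1 and GPA1 themselves were not analysed here, since no probe set was tied to them, so the genotype labels were not checked against the targeted genes.

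The values are log2 levels from robust multi-array averaging (RMA), on which a difference of 1 is a 2-fold difference. Medians of the 48 arrays lay between 5.05 and 5.38, and each array correlated at 0.969 to 0.992 on average with the others of its group. FMA (FAMA), a regulator of guard cell formation and the 1 guard cell marker of 8 with a probe set, lay at 10.32 to 11.66 in guard cells and at 4.75 to 6.28 in leaves with EtOH. SWEET11, a sucrose exporter of the phloem and the 1 vascular marker of 12 with a probe set, lay at 3.92 to 6.53 in guard cells and at 10.74 to 11.36 in leaves with EtOH. The summed level of 4 mesophyll markers (RCA, LHCB4.2, SBPASE and PRK) lay at 36.66 to 40.96 in guard cells and at 43.54 to 49.7 in leaves with EtOH. In such bulk samples, fewer cells of a type and less RNA per cell cannot be told apart.

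In leaves, RALFL32 rose with ABA in all 3 mutant genotypes. In agb1 leaves its level was 7.19, 6.99 and 7.18 with EtOH in replicates 1, 2 and 3, and 9.23, 9.22 and 9.76 with ABA. In gpa1 leaves it was 7.85, 7.41 and 6.95 with EtOH, and 9.24, 9.51 and 9.16 with ABA. In agb1 gpa1 leaves it was 6.70, 6.84 and 7.36 with EtOH, and 9.0, 9.77 and 9.69 with ABA. Every ABA array lay above every EtOH array of the same genotype. Groups stood apart in this direction for 12.5% of all probe sets in agb1, 14% in gpa1 and 12.2% in agb1 gpa1.

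The rise of RALFL32 was 2.29 in agb1 leaves (SE 0.259, 4.88-fold, limma adjusted p = 6.16e-06). In gpa1 leaves it was 1.90 (SE 0.259, 3.72-fold, adjusted p = 6.19e-05). In agb1 gpa1 leaves it was 2.52 (SE 0.259, 5.74-fold, adjusted p = 2.53e-06). At this threshold, an adjusted p under 0.05, the share of all probe sets that rose was 6.93% in agb1, 5.37% in gpa1 and 5.09% in agb1 gpa1. With each array centred on its median, which moved the median ABA difference over all probe sets by 0.123, 0.074 and 0.104, the rise of RALFL32 was 2.41, 1.97 and 2.62 in the same order.

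Wild-type leaves, which chose the gene, had RALFL32 at 6.41, 6.04 and 6.94 with EtOH and at 9.85, 10.06 and 9.73 with ABA. The mean was 6.46 ± 0.45 with EtOH and 9.88 ± 0.17 with ABA (SD, n = 3). In the mutants the mean with ABA was 9.41 ± 0.31 in agb1, 9.30 ± 0.18 in gpa1 and 9.49 ± 0.42 in agb1 gpa1 (SD, n = 3). The wild-type difference was the largest of the 4 genotypes and the wild-type EtOH mean the lowest, a direction that the choice of the gene on the wild-type difference favours. The response was lower than in wild type by 1.13 in agb1, 1.52 in gpa1 and 0.89 in agb1 gpa1, given as a description.

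CLE44 ranked between the percentiles 20.7 and 32.7 of the EtOH leaf arrays and stood higher in every ABA leaf array, with more scatter than RALFL32. In agb1 leaves it was 3.94, 3.70 and 3.82 with EtOH, and 5.39, 4.05 and 5.24 with ABA. In gpa1 leaves it was 3.56, 3.69 and 3.61 with EtOH, and 4.66, 4.26 and 4.41 with ABA. In agb1 gpa1 leaves it was 3.76, 3.62 and 3.68 with EtOH, and 5.32, 6.35 and 4.66 with ABA. The EtOH and ABA arrays of CLE44 did not overlap in any of the 3 mutants, against the shares of all probe sets given above for the same comparisons. Replicate 2 of the agb1 ABA leaves, at 4.05, lay just above the highest agb1 EtOH array, at 3.94.

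CLE44 had a positive ABA difference in the leaves of all 3 mutants, and it passed the test in 1 of them. Of all probe sets 6.93% rose in agb1 leaves, 5.37% in gpa1 and 5.09% in agb1 gpa1. In agb1 gpa1 leaves the rise was 1.76 (SE 0.405, 3.38-fold, limma adjusted p = 0.00792). This call was lost when the spread was estimated from the 6 arrays compared alone (adjusted p = 0.0607), and without the ABA array of replicate 2, where the difference was 1.30 (adjusted p = 0.0552). In agb1 leaves the CLE44 difference was 1.07 (95% interval 0.22 to 1.92) and did not pass (adjusted p = 0.0879). It passed without the ABA array of replicate 2, at 1.49 (adjusted p = 0.0222), and with the spread estimated from all 48 arrays (adjusted p = 0.0119). In gpa1 leaves the difference was 0.82 (95% interval -0.03 to 1.67, adjusted p = 0.256), and it passed where only the 6 arrays compared set the spread (adjusted p = 0.00543). Wild-type leaves had CLE44 at 3.81, 3.74 and 3.54 with EtOH and at 5.0, 6.84 and 6.19 with ABA, which chose the gene.

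**Figure D1:**
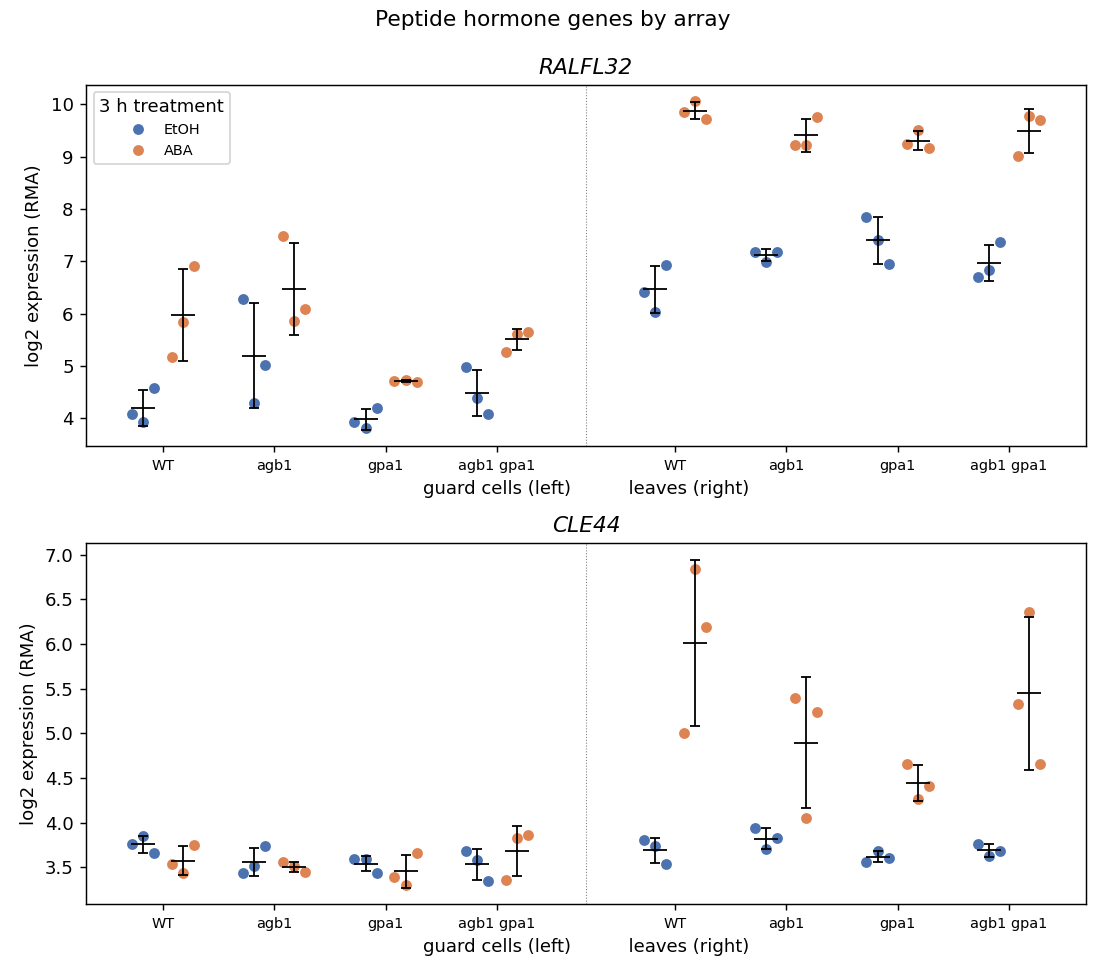
Log2 RMA level of RALFL32 and of CLE44 (vertical axes) on each of the 48 arrays, by genotype, treatment and sample type; points are arrays and bars the group mean ± SD (n = 3). RALFL32 lay at 9.0 to 10.06 in ABA leaves and at 3.81 to 6.27 in EtOH guard cells, and CLE44 left its low level of 3.31 to 3.94 only in ABA leaves, at 4.05 to 6.84.

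In guard cells RALFL32 started lower and was higher with ABA in every genotype. Wild-type guard cells had 4.08, 3.94 and 4.59 with EtOH, and 5.18, 5.84 and 6.91 with ABA. The agb1 guard cells had 6.27, 4.30 and 5.02 with EtOH, and 7.48, 5.85 and 6.09 with ABA. The EtOH and ABA arrays stood apart in wild type and overlapped in agb1, where replicate 1 was the highest array of both treatments. The gpa1 guard cells had 3.93, 3.81 and 4.2 with EtOH, and 4.71, 4.74 and 4.70 with ABA. The agb1 gpa1 guard cells had 4.97, 4.39 and 4.09 with EtOH, and 5.28, 5.61 and 5.64 with ABA. RALFL32 arrays stood apart in both of these genotypes, and the gpa1 ABA arrays lay closest together. Among all probe sets, 15.6% stood apart upward in wild type, 13.6% in agb1, 15% in gpa1 and 15.3% in agb1 gpa1.

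Same-numbered guard cell arrays deviated together from their group means, so the fit with the replicate number as a block bears on these 4 comparisons. RALFL32 rose by 1.77 in wild-type guard cells (SE 0.453, 3.42-fold, limma adjusted p = 0.00777, with the block 9.02e-05). Without the ABA array of replicate 3 the wild-type difference was 1.31 and missed the threshold (adjusted p = 0.0614). In agb1 the difference of RALFL32 was 1.28 (2.42-fold, adjusted p = 0.0635, with the block 0.00135), and without the block it passed under 4 of the 6 other settings (0.0198 to 0.0479). It also passed without ABA replicate 2, at 1.59 (adjusted p = 0.0358), or EtOH replicate 1, at 1.82 (0.00839), and was 0.78 without ABA replicate 1 (0.330) and 0.83 without EtOH replicate 2 (0.318). In gpa1 it was 0.74 (1.67-fold, adjusted p = 0.311, with the block 0.0312), and in agb1 gpa1 it was 1.02 (2.03-fold, adjusted p = 0.143, with the block 0.00596). The 3 mutant differences had 95% intervals without the block of 0.33 to 2.22, -0.21 to 1.68 and 0.08 to 1.97. Without the block 8.55% of all probe sets rose with ABA in wild-type guard cells, 7.26% in agb1, 8.67% in gpa1 and 7.26% in agb1 gpa1. In either direction 6502 of 22746 probe sets were called with the block in wild-type guard cells, against 4585 without it. The counts with and without it were 5358 and 3571 in agb1, 6453 and 4564 in gpa1, and 5513 and 3695 in agb1 gpa1.

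Taken pair by pair, RALFL32 was higher with ABA in 12 of 12 same-numbered guard cell pairs, by 0.30 to 2.32. The share of all probe sets with such pairs was not counted. Counts of pairs, here and for the genes below, are therefore descriptions only. Wild-type pairs differed by 1.10, 1.90 and 2.32, and gpa1 pairs by 0.78, 0.93 and 0.50. The agb1 pairs differed by 1.20, 1.56 and 1.07, and the agb1 gpa1 pairs by 0.30, 1.22 and 1.55. In agb1 the pairs thus lay closer together than the arrays of either treatment, whose SD was 1.0 with EtOH and 0.88 with ABA.

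**Figure D2:**
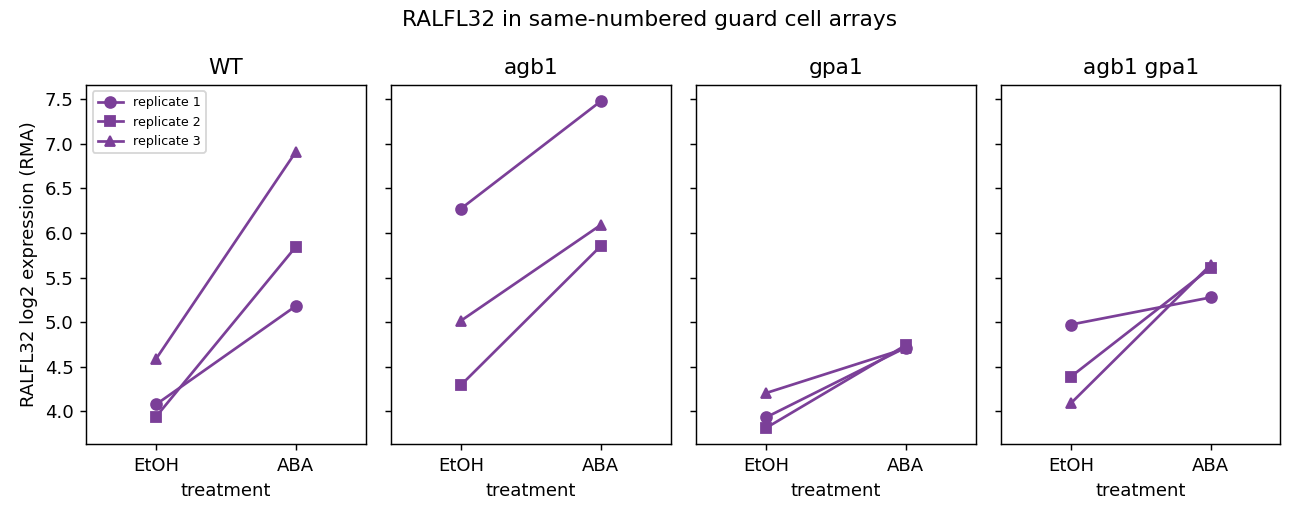
RALFL32 log2 RMA level (vertical axis) in guard cells with EtOH and with ABA, 1 panel for each genotype; each line joins arrays of the same replicate number. All 12 lines go up, by 0.30 to 2.32, and replicate 1 of agb1 starts at 6.27.

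The RALFL32 level in EtOH guard cells moved with the phloem marker SWEET11 in some arrays. In agb1, replicate 1 was highest for both, with RALFL32 at 6.27 and SWEET11 at 6.16. In agb1 gpa1, replicate 1 was again highest for both, at 4.97 and 6.53, and in gpa1 replicate 3 was, at 4.2 and 4.245. In wild type the highest array was replicate 3 for RALFL32 and replicate 1 for SWEET11. In agb1, replicate 3 lay above replicate 2 for RALFL32 and below it for SWEET11. Replicates 1, 2 and 3 had SWEET11 at 5.33, 4.10 and 4.85 in wild type, and at 6.16, 5.16 and 4.72 in agb1. They had SWEET11 at 4.02, 4.12 and 4.245 in gpa1, and at 6.53, 4.68 and 3.92 in agb1 gpa1. SWEET11 did not pass the test for ABA in any guard cell comparison, with differences of 0.02, -0.39, 0.20 and -0.10 in wild type, agb1, gpa1 and agb1 gpa1. The part of vascular RNA in the RALFL32 level of guard cell samples was not tested.

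CLE44 was not separated by ABA in guard cells. Over the 12 EtOH guard cell arrays its level was 3.34 at the lowest, 3.59 at the median and 3.86 at the highest, and over the 12 ABA arrays 3.31, 3.53 and 3.86. The arrays of the 2 treatments overlapped in all 4 genotypes. Differences of CLE44 were -0.18, -0.05, -0.09 and 0.15 in wild type, agb1, gpa1 and agb1 gpa1 (SE 0.139, limma adjusted p = 0.416, 0.890, 0.775 and 0.544). Their 95% intervals reached from -0.47 at the lowest bound to 0.44 at the highest. CLE44 ranked between the percentiles 8.96 and 30.4 of its guard cell array, and the deposited values carry no detection call, so these levels were not separated from background.

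**Figure D3:**
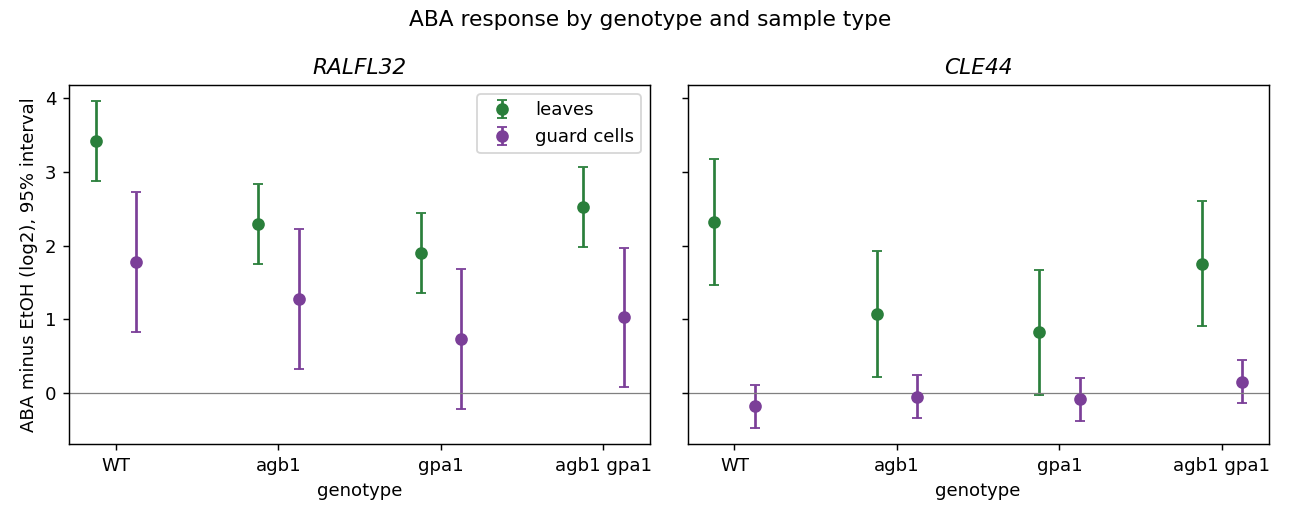
ABA minus EtOH difference in log2 level (horizontal position by genotype, vertical axis in log2 units) of RALFL32 and CLE44 in guard cells and leaves; points are fitted differences and bars 95% intervals. RALFL32 lay between 0.74 and 1.77 in guard cells and between 1.90 and 3.41 in leaves, and CLE44 between -0.18 and 0.15 in guard cells; the wild-type leaf points chose the genes.

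The ABA response of CLE44 was smaller in guard cells than in leaves of agb1 gpa1, by 1.61 (limma interaction, SE 0.436, adjusted p = 0.0206). A lower response in guard cells was called for 3.1% of all probe sets in agb1, 3.93% in gpa1 and 2.84% in agb1 gpa1. The CLE44 call was lost when only the arrays compared set the spread (adjusted p = 0.0797). It was also lost without ABA replicate 2 of the leaves, where the difference fell to -1.15 (adjusted p = 0.116), or without ABA or EtOH replicate 1 of the guard cells (adjusted p = 0.0703 and 0.0527). In agb1 the difference of responses was -1.13 (adjusted p = 0.136), and it passed without ABA replicate 2 of the leaves (-1.55, adjusted p = 0.0199). In gpa1 it was -0.91 (adjusted p = 0.255), and it passed where only the arrays compared set the spread (0.00964). For RALFL32 the differences of responses were -1.01 in agb1, -1.16 in gpa1 and -1.50 in agb1 gpa1 (SE 0.543, adjusted p = 0.354, 0.234 and 0.110). None of these passed, whereas with the replicate block the gpa1 and agb1 gpa1 differences did (0.0357 and 0.00921), as with the arrays compared alone (0.0218 and 0.0474). The block here also pairs leaf arrays, whose same-numbered deviations correlated at -0.276 to 0.242 in gpa1 and -0.001 to 0.551 in agb1 gpa1. Pairing of these leaves was therefore not shown. In wild type the guard cell response was lower than the leaf response by 1.64 for RALFL32 and by 2.50 for CLE44, as a description.

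RALFL32 was lower in guard cells than in leaves of every mutant, with both treatments. With EtOH it was lower by 1.92 in agb1 (limma adjusted p = 8.99e-05), by 3.42 in gpa1 (adjusted p = 2.66e-09) and by 2.48 in agb1 gpa1 (adjusted p = 1.42e-06), all with SE 0.384. With ABA it was lower by 2.93 in agb1 (adjusted p = 7.06e-08), by 4.58 in gpa1 (adjusted p = 2.94e-12) and by 3.98 in agb1 gpa1 (adjusted p = 7.73e-11). The gpa1 differences correspond to 10.7-fold with EtOH and 23.9-fold with ABA. In these 6 comparisons no guard cell array reached the lowest leaf array, which held with EtOH for 24%, 24.9% and 26% of all probe sets and with ABA for 22.7%, 25.8% and 24.5%, in the same order of genotypes. With EtOH 20.1% of all probe sets were lower in guard cells of agb1, 20.7% in gpa1 and 21.4% in agb1 gpa1, and with ABA 20.5%, 21.1% and 22.7%.

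CLE44 did not pass between the sample types with EtOH, with guard cells minus leaves at -0.26, -0.08 and -0.15 in agb1, gpa1 and agb1 gpa1 (SE 0.309, limma adjusted p = 0.568, 0.878 and 0.738). With ABA it was lower in guard cells by 1.39 in agb1 (adjusted p = 3.20e-04), by 0.98 in gpa1 (adjusted p = 0.00840) and by 1.76 in agb1 gpa1 (adjusted p = 9.96e-06). Isolation of the cells goes with the sample type, so the effect of isolation and that of cell type cannot be told apart in any of these comparisons. The summed level of 5 touch and wound genes (CML23, CML37, CML38, STZ and WRKY53) was 50.08 to 53.05 in EtOH guard cells and 34.92 to 42.73 in EtOH leaves. Of these genes WRKY53 went the other way, at 7.34 to 9.60 in EtOH guard cells and 9.04 to 10.20 in EtOH leaves. The part of these genes in the differences between sample types was not tested.

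Ordered by group mean, RALFL32 ran from the 4 ABA leaf groups, at 9.30 to 9.88, through EtOH leaves of gpa1 at 7.40, agb1 at 7.12 and agb1 gpa1 at 6.97. Next came ABA guard cells of agb1 at 6.47, EtOH leaves of wild type at 6.46, and ABA guard cells of wild type at 5.98 and agb1 gpa1 at 5.51. The order ended with EtOH guard cells of agb1 at 5.20, ABA guard cells of gpa1 at 4.72, and EtOH guard cells of agb1 gpa1, wild type and gpa1, the last at 3.98. The arrays of 14 of the 15 pairs of neighbours in this order overlapped. The remaining pair, gpa1 leaves with ABA above gpa1 leaves with EtOH, stood 1.90 apart. RALFL32 ranked between the percentiles 88.5 and 94.3 of its array in ABA leaves, and between 28.2 and 60.6 in EtOH guard cells.

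For CLE44 the order held the 4 ABA leaf groups at the top, wild type at 6.01 ± 0.93, agb1 gpa1 at 5.45 ± 0.85, agb1 at 4.89 ± 0.73 and gpa1 at 4.44 ± 0.20 (SD, n = 3). The other 12 groups lay between 3.46 and 3.82. Of the 15 pairs of neighbours 1 did not overlap, the gap of 0.62 between ABA leaves of gpa1 and the next group. The SD of CLE44 within the ABA leaf groups of wild type, agb1 and agb1 gpa1 was thus larger than the whole spread of means of those 12 groups.

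Between genotypes neither gene passed a test. In guard cells RALFL32 differed from wild type by 0.99, -0.22 and 0.28 with EtOH in agb1, gpa1 and agb1 gpa1, and by 0.50, -1.26 and -0.47 with ABA (limma adjusted p from 0.553 to 1.0). The gpa1 ABA guard cells, at 4.70 to 4.74, lay below all 3 wild-type ABA arrays, at 5.18 to 6.91, as was so for 5.65% of all probe sets, and the 95% interval for the difference was -2.20 to -0.31. At an unadjusted p under 0.05, 2 of the 6 RALFL32 comparisons would count, agb1 with EtOH and gpa1 with ABA. The share of all probe sets at that unadjusted p was 3.5%, 7.17% and 6.18% with EtOH and 5.35%, 7.86% and 7.96% with ABA in agb1, gpa1 and agb1 gpa1. After adjustment the share of all probe sets called in agb1, gpa1 and agb1 gpa1 was 0.0308%, 0.0176% and 0.0484% with EtOH and 0.00879%, 0.00879% and 0.0132% with ABA. The ABA response of RALFL32 in guard cells differed from that of wild type by -0.50 in agb1, -1.04 in gpa1 and -0.75 in agb1 gpa1, with 95% intervals of -1.84 to 0.84, -2.38 to 0.30 and -2.09 to 0.59, and 0% of all probe sets passed there. For CLE44 the 6 guard cell differences from wild type lay between -0.22 and 0.11.

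In leaves, 9 comparisons of 1 mutant with another were made for each gene, in which 0% of all probe sets passed for the response and 0.0044% or 0.00879% for a level. Their differences ran from -0.43 to 0.62 for RALFL32 and from -0.13 to 1.0 for CLE44. The highest, CLE44 with ABA in agb1 gpa1 against gpa1, was 1.0 (95% interval 0.15 to 1.85, limma adjusted p = 0.574), with arrays that did not overlap, as for 10.2% of all probe sets in this direction. Against wild-type leaves, as a description, RALFL32 in agb1, gpa1 and agb1 gpa1 was 0.65, 0.94 and 0.51 higher with EtOH. With ABA RALFL32 stood at -0.47, -0.58 and -0.39 from wild type, and CLE44 at -1.12, -1.57 and -0.57.

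Among the other ligand genes, 10 RALF and 6 CLE genes had a probe set, of 85 in both families with the 2 genes described. In wild-type leaves 2 of the 10 RALF genes rose with ABA (RALFL31 and RALFL33) and 3 of the 6 CLE genes (CLE41, CLE26 and CLE40), where 16.9% of all probe sets rose. Since the families came to notice in this contrast, nothing is read from these counts. With each array centred on its median, the count called in both families together, RALFL32 and CLE44 included, went from 7 to 14 of 18. Centring moved the median difference over all probe sets by 0.253, from 0.052 to 0.305. It moved the count of all probe sets called from 8812 to 13052. Without centring, the calls were as follows. RALFL31 differed by 1.46 (limma adjusted p = 0.00392), CLE26, a gene of root phloem, by 1.04 (0.0222) and CLE40, which acts on root stem cells, by 0.24 (0.0408). The CLE26 call was lost without ABA or EtOH replicate 3 (0.0703 and 0.0668), and the CLE40 call with the replicate block (0.0815) and without ABA replicate 1 or 2 or EtOH replicate 1 or 2 (0.0573 to 0.161), and in 3 other settings (0.123 to 0.166). In the leaves of the 3 mutants none of these 16 genes passed in the fit of all leaf arrays. In agb1 leaves, where same-numbered arrays were taken as paired, RALFL34 rose by 0.71 with the replicate block (adjusted p = 0.0197). In leaves not taken as paired, RALFL24 passed with the block in gpa1 (-1.03, 0.0210) and agb1 gpa1 (-0.91, 0.0366), and RALFL34 in gpa1 (0.65, 0.0378). With the arrays compared alone RALFL24 fell by 1.03 (0.0146) and RALFL34 rose by 0.65 (0.0162) in gpa1 leaves. The median ABA difference of the 11 RALF genes was 0.45 in wild-type leaves, 0.09 in agb1, -0.02 in gpa1 and 0.00 in agb1 gpa1, against 0.05, -0.00, -0.03 and 0.00 over all probe sets.

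CLE41, whose gene encodes the same peptide as CLE44, had a higher mean with ABA in the leaves of all 4 genotypes. Its level in EtOH leaves was 6.55, 5.13 and 5.44 in wild type, 5.65, 4.69 and 6.84 in agb1, 5.48, 5.29 and 5.39 in gpa1, and 6.12, 5.72 and 5.58 in agb1 gpa1. In ABA leaves it was 7.34, 8.02 and 7.30, then 6.47, 6.09 and 7.40, then 6.33, 6.07 and 6.20, and last 7.35, 7.03 and 6.67. The arrays overlapped only in agb1. CLE41 rose by 1.85 in wild-type leaves (limma adjusted p = 0.00246), and its differences of 0.93, 0.81 and 1.21 in agb1, gpa1 and agb1 gpa1 did not pass (adjusted p = 0.176, 0.309 and 0.0894). They passed with the arrays compared alone in gpa1 (0.00363) and agb1 gpa1 (0.0332), with the replicate block in agb1 gpa1 (0.0223), and without EtOH replicate 3 in agb1, at 1.49 (0.0152). In guard cells CLE41 differed by 0.23, 0.38, 0.63 and -0.02, and the gpa1 value did not pass in the fit of all guard cell arrays but did with the replicate block (adjusted p = 0.0144) and with the arrays compared alone (0.0324). CLE41 in guard cells was named for its value with the block, so nothing is read from its passing with it. Across the 8 leaf group means, which share arrays and the ABA contrast, CLE41 and CLE44 correlated at 0.990.

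RALFL33, whose peptide acts with FER in immune signalling in Arabidopsis, moved against RALFL32 in guard cells. In wild-type guard cells RALFL33 was 12.27, 12.05 and 11.92 with EtOH, and 11.79, 11.19 and 10.52 with ABA. In agb1 it was 12.06, 12.32 and 12.07, then 11.40, 11.41 and 11.06. In gpa1 it was 12.33, 12.58 and 12.17, then 11.54, 11.79 and 11.43, and in agb1 gpa1 12.4, 12.41 and 12.36, then 11.14, 11.53 and 10.94. The ABA arrays lay below the EtOH arrays in all 4 genotypes, which held for 16.6%, 16.5%, 17.8% and 18.8% of all probe sets, and 12 of 12 same-numbered pairs were lower.

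RALFL33 fell by 0.91 in wild-type guard cells, 0.86 in agb1, 0.77 in gpa1 and 1.19 in agb1 gpa1 (SE 0.223, limma adjusted p = 0.00571, 0.0107, 0.0176 and 7.61e-04). The share of all probe sets that fell was 11.6%, 8.44%, 11.4% and 8.99%. The wild-type call was lost where only the 6 arrays compared set the spread (adjusted p = 0.107). Leaving out 1 array ended the agb1 call without ABA replicate 3 (adjusted p = 0.0603) or EtOH replicate 2 (0.0520), and the gpa1 call without ABA replicate 1 or 3 (0.0521 and 0.0757) or EtOH replicate 2 (0.0809). In leaves RALFL33 rose in wild type by 1.07 (adjusted p = 0.00200) and did not pass in agb1 at 0.39, gpa1 at 0.10 or agb1 gpa1 at 0.14.

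Of the other RALF genes in guard cells, RALFL22, which acts with FER in salt responses, fell by 1.09 in agb1 gpa1 (limma adjusted p = 0.0401). That call was lost with the spread of all 48 arrays (adjusted p = 0.0604), and without any 1 of its 6 arrays except ABA replicate 2 (0.0507 to 0.175). RALFL26 rose by 0.56 in agb1 gpa1 guard cells (adjusted p = 0.0186), a call lost where only the 6 arrays compared set the spread (adjusted p = 0.119) and without ABA replicate 1 (0.135) or EtOH replicate 3 (0.0678). RALFL34, a ligand of the receptor kinase THE1 in roots, was chosen for mention after its values were seen. It was higher with ABA in 11 of 12 guard cell pairs, with differences of 1.05, 0.99, 0.98 and 0.67 in wild type, agb1, gpa1 and agb1 gpa1. None passed in the fit of all guard cell arrays (adjusted p = 0.0534, 0.0840, 0.0734 and 0.267), and with the replicate block the values were 0.00874, 0.0149, 0.0130 and 0.0881. Without dim probe sets the wild-type, agb1 and gpa1 values of RALFL34 passed as well (0.0312, 0.0486 and 0.0431). With the block RALFL22 also fell in wild type, by 0.74 (0.0376), and RALFL24 rose in gpa1, by 0.67 (0.0473). None of the 7 CLE genes passed in the fit of all guard cell arrays without the block.

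**Figure D4:**
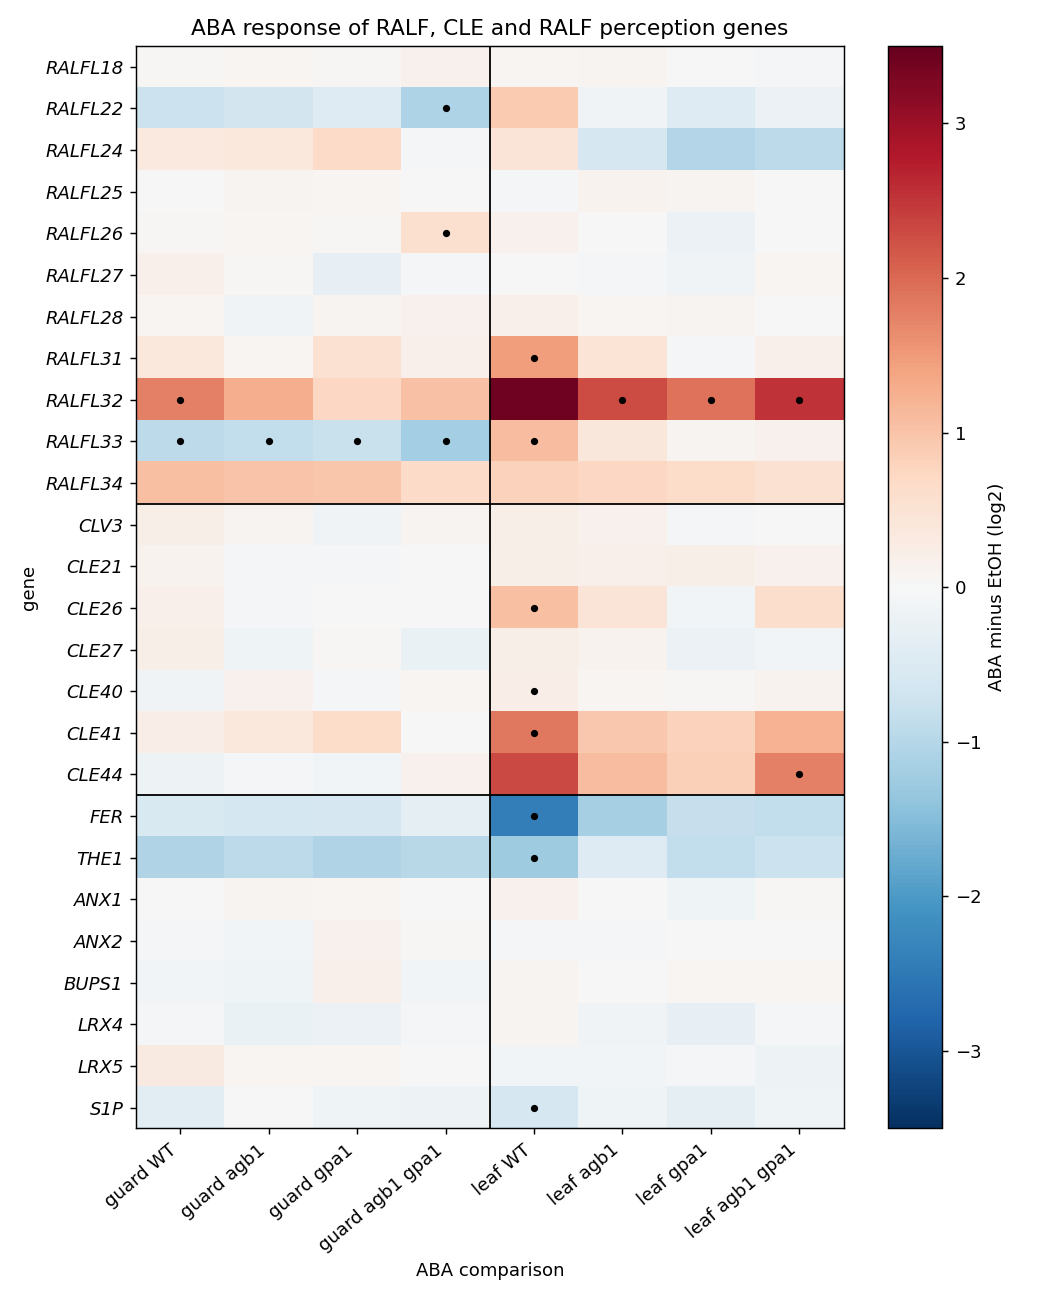
ABA minus EtOH difference in log2 level (colour scale) of 11 RALF genes, 7 CLE genes and 8 genes of RALF perception (vertical axis) in guard cells and leaves of 4 genotypes (horizontal axis); dots mark an adjusted p under 0.05, left out for the 2 chosen genes in wild-type leaves. RALFL32 is higher in all 8 columns, RALFL33 lower in the 4 guard cell columns, and FER lower in all 8.

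Of the genes for perception and processing, 8 of 21 had a probe set. FER, the receptor kinase for several RALF peptides, was lower with ABA in 12 of 12 guard cell pairs, by 0.21 to 1.0. In wild-type leaves FER was 10.68, 10.10 and 10.75 with EtOH and 7.89, 8.43 and 7.97 with ABA, groups that did not overlap, and it fell by 2.41 (limma adjusted p = 1.75e-04, where 21.8% of all probe sets fell). In agb1 leaves it was 10.48, 10.69 and 9.42, then 9.61, 9.31 and 8.14, groups that overlapped. The agb1 difference was -1.17 (adjusted p = 0.0618) and passed with the replicate block (0.0398) and in 3 other settings (0.0238 to 0.0483), while gpa1 at -0.80 and agb1 gpa1 at -0.87 did not pass (0.277 and 0.220).

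In guard cells the FER differences were -0.54, -0.63, -0.60 and -0.34 in wild type, agb1, gpa1 and agb1 gpa1, and none passed without the block (limma adjusted p = 0.258, 0.214, 0.209 and 0.527). With the replicate block FER passed in wild type, agb1 and gpa1 (adjusted p = 0.0149, 0.00723 and 0.00790) and not in agb1 gpa1 (0.114). THE1, a receptor kinase related to FER, differed by -1.05, -0.93, -1.05 and -0.96 in guard cells and was lower in 12 of 12 pairs. Its adjusted p was 0.0530, 0.108, 0.0521 and 0.0887 without the block and 0.00951, 0.0224, 0.00931 and 0.0179 with it, and each of the 4 also passed in 1 or 2 of the other settings (0.0138 to 0.0449). FER and THE1 in guard cells were named for their values with the block, so nothing is read from their passing with it. With the block 6502 of 22746 probe sets were called in wild-type guard cells, 5358 in agb1, 6453 in gpa1 and 5513 in agb1 gpa1. In wild-type leaves THE1 fell by 1.23 (adjusted p = 0.0286), a call lost under median centring (0.0564) and without ABA replicate 1 or 2 or EtOH replicate 3 (0.0831, 0.0653 and 0.165). S1P, the protease that cleaves the RALF23 precursor, fell by 0.58 in wild-type leaves (adjusted p = 0.00884), a call lost under median centring (0.0771), quantile normalization (0.135) and without ABA replicate 2 (0.0564). The other 5, ANX1, ANX2 and BUPS1 (receptor kinases of the pollen tube) and the cell wall proteins LRX4 and LRX5, did not pass in any ABA comparison, except that ANX1 and BUPS1 rose in wild-type leaves under median centring (0.0095 and 0.0181). That centring moved the median difference over all probe sets in wild-type leaves from 0.052 to 0.305.

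**Figure D5:**
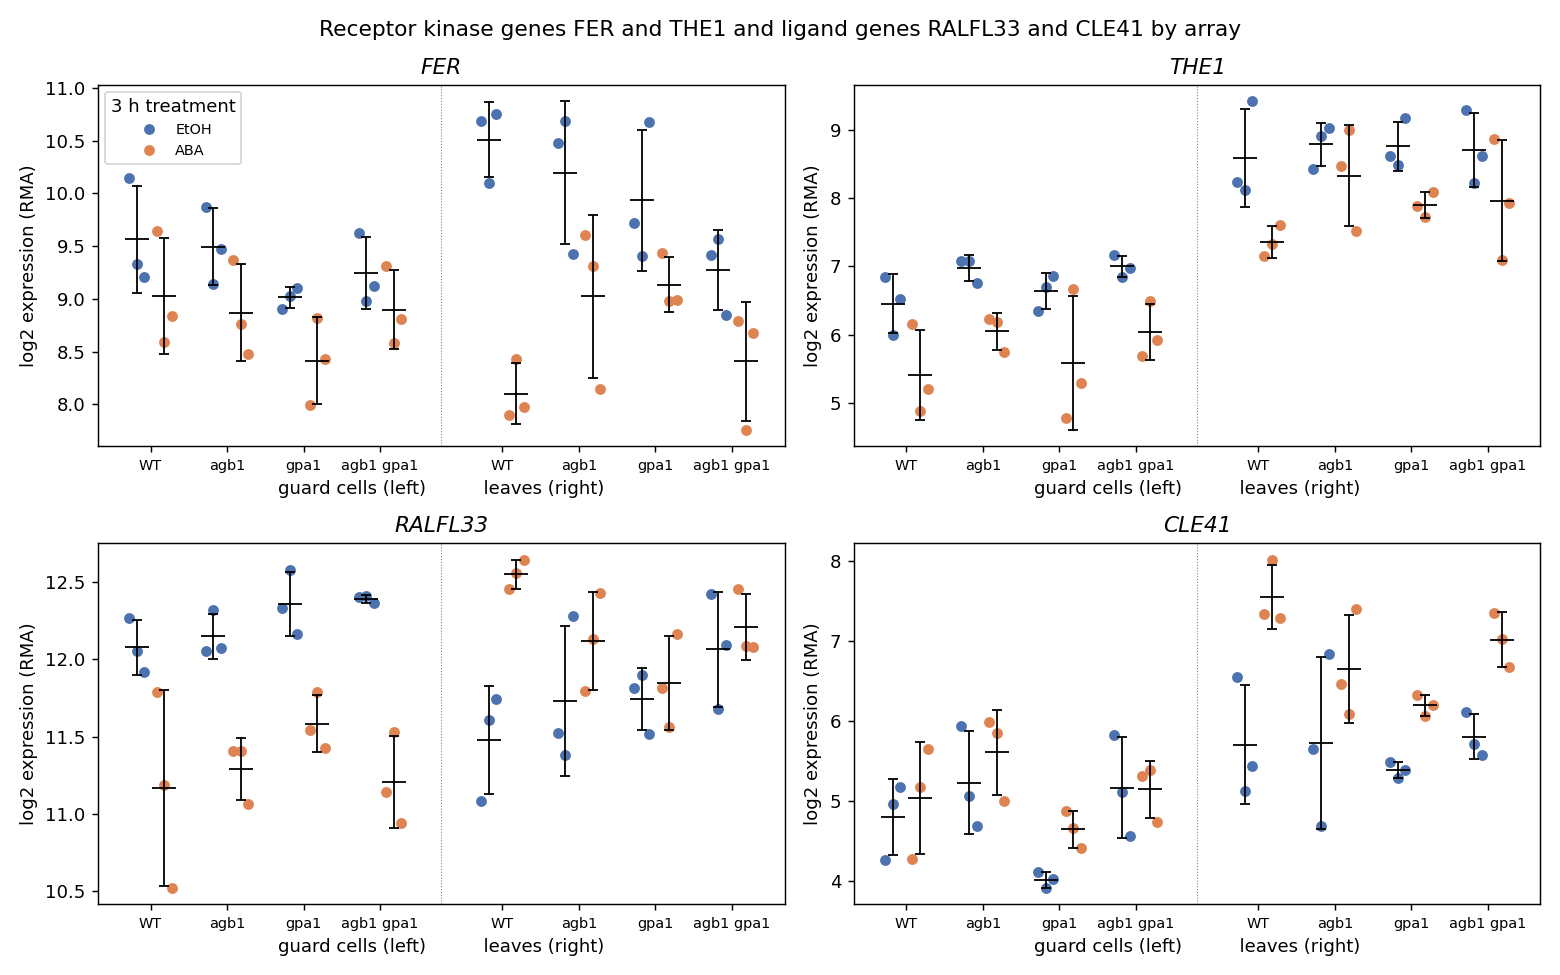
Log2 RMA level (vertical axes) of FER, THE1, RALFL33 and CLE41 on each array by genotype, treatment and sample type; points are arrays and bars the group mean ± SD (n = 3). RALFL33 with ABA lay at 10.52 to 11.79 in guard cells and at 11.57 to 12.64 in leaves, and FER in wild-type leaves went from 10.10 or more with EtOH to 8.43 or less with ABA.

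Marker genes also moved with ABA in these samples. SWEET11 fell in mutant leaves by 1.15 in agb1, 1.27 in gpa1 and 1.36 in agb1 gpa1 (limma adjusted p = 0.0254, 0.0186 and 0.0122), where CLE44 and CLE41 had positive differences. FMA fell in guard cells by 2.44, 2.4, 2.78 and 2.23 in wild type, agb1, gpa1 and agb1 gpa1. Of all probe sets 11.6%, 8.44%, 11.4% and 8.99% fell there, in the same order. The summed mesophyll level was 38.14 to 44.18 in ABA leaves and 33.4 to 39.66 in ABA guard cells. Of 5 touch and wound genes, 4 rose in wild-type and agb1 leaves, 3 in gpa1 and 2 in agb1 gpa1, and 1 fell in each. Among all probe sets 16.9% rose in wild-type leaves, 6.93% in agb1, 5.37% in gpa1 and 5.09% in agb1 gpa1. In either direction 8812 of 22746 were called in wild-type leaves, 3303 in agb1, 2347 in gpa1 and 2311 in agb1 gpa1. Of those called, 43.7%, 47.7%, 52.0% and 50.1% were higher in the same order, and the rest fell. The falls of SWEET11 and of the touch and wound genes in leaves stand beside these shares. All 4 measured ABA-induced genes (COR15A, COR47, LTI30 and LEA4-5) rose in guard cells of each genotype. Among all probe sets 8.55% rose in wild-type guard cells, 7.26% in agb1, 8.67% in gpa1 and 7.26% in agb1 gpa1. In leaves 3 of these 4 genes rose in wild type, agb1 and agb1 gpa1 and 4 in gpa1. The part of these movements in the RALFL32 and CLE44 differences was not tested.

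Across the 16 group means, which share arrays and the ABA and sample type contrasts, RALFL32 and CLE44 correlated at 0.825. The genes with the pattern most like RALFL32, by Pearson correlation over those means, were AT3G13950 at 0.987, LigB (AT4G15093) at 0.981, AT4G30450 at 0.980, 5-FCL (AT5G13050) at 0.979 and AT5G61890 at 0.977. For CLE44 they were AT4G33550 at 0.975, AT4G12580 at 0.971, AT2G47200 at 0.970, AT2G37870 at 0.968 and AT4G16750 at 0.965. By Spearman correlation 0 of the first 5 were the same for either gene, and over the 48 single arrays 2 of 5 were shared for each. In the gene order of assembly TAIR10.1, RALFL32 lies 10 protein-coding genes from RALFL31 and 93 from CLE44.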

How the data were processed

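Total RNA of 48 samples was hybridised to 1-colour Affymetrix arrays. The deposited table holds log2 expression values made by the authors with RMA, per the submitters' processing notes, which name the R package affy. Its version, the chip definition and the genome build are not given in the sources used here. RMA ranks no probe set as present or absent, quantile-normalizes the arrays together and so removes differences in total signal between guard cells and leaves.

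All 48 value columns were mapped to samples by title, and 0 columns were left over. Of 22810 probe sets, 64 controls were left out and 22746 tested. The annotation table tied 13513 of them to 1 gene, 503 to several and 8730 to none, and genes were found by the table's symbol. A symbol whose locus differed from the one listed was dropped, and for RALFL22 and CLE21 no locus was matched. Groups came from the sample titles.

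Differences were fitted to the deposited log2 values with limma 3.58.1 in R 4.3.3 (lmFit, eBayes, two-sided, Benjamini-Hochberg over all probe sets of a comparison, called at an adjusted p under 0.05). Leaf comparisons used the 24 leaf arrays, guard cell comparisons the 24 guard cell arrays, and comparisons of sample types all 48. Of 47 comparisons, 34 hold no wild-type leaf array in the difference tested, which gave 68 tests of the 2 genes. Wild-type leaf arrays still entered the estimate of the spread in the leaf and sample type fits. For CLE44 in gpa1 leaves the SE was 0.405 in that fit and 0.132 with the arrays compared alone. A probe set counted as standing apart when all 3 arrays of 1 group lay above all 3 of the other. The fitting was tested on simulated data.

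The 2 genes and all gene lists were chosen with earlier results of these data known. Named by rule were both genes in every comparison, up to 4 other genes for each list and sample type that passed an ABA comparison, and the 5 genes most like each of the 2. RALFL34, and FER, THE1 and CLE41 in guard cells, are named besides for their values with the replicate block.

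The labels number replicates 1 to 3 in every group. Same-numbered EtOH and ABA arrays deviated together in guard cells (correlations of deviations from 0.354 to 0.439 in wild type, 0.385 to 0.644 in agb1, 0.330 to 0.600 in gpa1 and 0.204 to 0.318 in agb1 gpa1) and in agb1 leaves (0.524 to 0.661), which was taken as pairing. In the other leaves they ran from -0.36 to 0.314 in wild type, -0.276 to 0.242 in gpa1 and -0.001 to 0.551 in agb1 gpa1. No pairing was taken there, so values with the block that use these leaves are alternatives only. Alternatives were the replicate block, median centring, quantile normalization, a filter on dim probe sets, eBayes with trend and robust settings, the arrays compared alone, all 48 arrays, and leaving out each array. Sequences and promoter motifs were not analysed here. Of the 19 listed genes of CLE perception 0 were tied to a probe set, so they were not analysed here.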

Additional observations from a re-analysis of the deposited data

Results flagged for a closer look

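The ABA response differed between guard cells and leaves of the same genotype, by the limma interaction test, for 6 of the genes described. Of all 22746 probe sets, 5233 were called in this test in wild type, 1434 in agb1, 1766 in gpa1 and 1257 in agb1 gpa1. CLE44 had a lower response in guard cells of agb1 gpa1 (-1.61, SE 0.436, adjusted p = 0.0206). RALFL33 had a lower response in guard cells of wild type (-1.99, SE 0.339, adjusted p = 5.36e-05), agb1 (-1.25, adjusted p = 0.0182) and agb1 gpa1 (-1.33, adjusted p = 0.0125).

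In wild type the response was also lower in guard cells for RALFL22 (-1.67, SE 0.562, adjusted p = 0.0282), CLE41 (-1.62, SE 0.594, adjusted p = 0.0448) and CLE40 (-0.37, SE 0.117, adjusted p = 0.0178). FER had a response that was higher, that is less negative, in wild-type guard cells than in wild-type leaves (1.88, SE 0.527, adjusted p = 0.00861). Calls that ended when only the arrays compared set the spread were those of CLE44 (0.0797), RALFL22 (0.102), CLE41 (0.0937), CLE40 (0.122) and RALFL33 in agb1 (0.0714). Leaving out 1 array also ended calls. For CLE41 this was so without guard cell ABA replicate 1 or 2, guard cell EtOH replicate 2 or 3, leaf ABA replicate 2, or leaf EtOH replicate 2 or 3 (0.0597 to 0.156). For RALFL22 it was so without guard cell ABA replicate 2 or 3, guard cell EtOH replicate 1, leaf ABA replicate 2 or 3, or leaf EtOH replicate 1 or 2 (0.0506 to 0.105). CLE40 was lost without leaf ABA replicate 2 (0.0623), RALFL33 in agb1 gpa1 without leaf EtOH replicate 2 (0.0541), and RALFL33 in agb1 without guard cell ABA replicate 3 or EtOH replicate 2, leaf ABA replicate 3, or leaf EtOH replicate 1 or 2 (0.0547 to 0.0729). Other genes gained a call. With the arrays compared alone, RALFL24 had a higher response in guard cells of gpa1 (1.69, adjusted p = 0.0494, with the block 0.00336). RALFL33 had a lower one there (-0.88, 0.0478, with the block 0.0259). In wild type CLE26 (0.0138) and RALFL31 (0.0320) passed with the arrays alone. In agb1 gpa1 CLE41 passed with the block (-1.24, 0.0316) and RALFL26 without guard cell ABA replicate 3 (0.79, 0.0144). The wild-type comparisons hold the leaf arrays that brought these families to notice, so nothing is read from the count of wild-type calls. No group holds more than 3 arrays, so single arrays far from their group were not looked for by a test.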

How the results depend on the processing

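No sign changed under an alternative where a tested difference passed with either setting. Differences that did not pass changed sign in 4 of 47 comparisons for RALFL32, 7 of 47 for CLE44 and 115 of 288 for the other genes. The largest of them for RALFL32 was the agb1 against wild-type difference of guard cell responses, -0.50, which ran from -1.0 to 0.04 without 1 array. With the replicate block the RALFL32 response in guard cells passed in agb1 (1.28, adjusted p = 0.00135), agb1 gpa1 (1.02, 0.00596) and gpa1 (0.74, 0.0312), and its guard cell minus leaf difference passed in agb1 gpa1 (-1.50, 0.00921) and gpa1 (-1.16, 0.0357). The guard cell minus leaf values also rest on blocks of leaf arrays for which no pairing was taken. The block moved the count of all probe sets with such a difference of responses from 1434 to 2329 in agb1, 1766 to 2660 in gpa1 and 1257 to 2133 in agb1 gpa1. For the ABA response in guard cells it moved the count from 3571 to 5358 in agb1 and from 4564 to 6453 in gpa1. In agb1 gpa1 guard cells the count went from 3695 to 5513. The block changed no other call of the 2 genes.

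With the spread from the arrays compared alone, RALFL32 passed in guard cells of agb1 gpa1 (1.02, 0.0196) and gpa1 (0.74, 0.0125) and in the guard cell minus leaf difference of agb1 gpa1 (-1.50, 0.0474) and gpa1 (-1.16, 0.0218). CLE44 then passed in gpa1 leaves (0.82, 0.00543) and in the gpa1 difference (-0.91, 0.00964), and missed in agb1 gpa1 leaves (1.76, 0.0607) and the agb1 gpa1 difference (-1.61, 0.0797). RALFL32 in agb1 guard cells passed with all 48 arrays (1.28, 0.0198), median centring (1.33, 0.0472), quantile normalization (1.32, 0.0479) and without dim probe sets (1.28, 0.0349). CLE44 in agb1 leaves passed with all 48 arrays (1.07, 0.0119).

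Leaving out 1 array gave RALFL32 responses of 1.31 to 2.17 in wild-type and 0.78 to 1.82 in agb1 guard cells. It gave CLE44 responses of 0.82 to 1.49 in agb1 and 1.30 to 2.15 in agb1 gpa1 leaves, and CLE44 differences of responses of -1.55 to -0.88 in agb1 and -2.0 to -1.15 in agb1 gpa1.

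Counts of the 18 RALF and CLE genes called moved from 7 to 14 in wild-type leaves with median centring, where 43.7% of all called probe sets were higher and 70.7% after centring (agb1 47.7% and 60.5%, agb1 gpa1 50.1% and 62.5%). In agb1 leaves 1 became 2 with all 48 arrays and with the block, and 1 to 3 without 1 array. In gpa1 leaves 1 became 5 with the arrays compared alone and 3 with the block, and in agb1 gpa1 leaves 2 became 4 with the block and 1 to 2 without 1 array. In wild-type guard cells 2 became 1 with the arrays compared alone, 4 with the block and 1 to 4 without 1 array. In agb1 guard cells 1 became 2 with all 48 arrays, median centring or quantile normalization, 3 with the block or without dim probe sets, and 0 to 2 without 1 array. In gpa1 guard cells 1 became 3 with the arrays compared alone, 5 with the block, 2 without dim probe sets and 0 to 1 without 1 array, and in agb1 gpa1 guard cells 3 became 4 with the block and 1 to 3 without 1 array. Fewer arrays leave fewer degrees of freedom; otherwise the cause was not tested. The number of arrays, 3 to a group, limits the precision, and low levels such as those of CLE44 outside ABA leaves lie where RMA compresses differences.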
